A study of Equus caballus with 19 samples.

Results

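The genes described here were those whose signal in blood differed most from horse to horse within a housing group. The array was named gene by gene through RefSeq accessions, which gave 799 genes. They were ranked by their mean signal over 19 arrays, and of the 420 genes at ranks 81 to 500 the 60 with the highest standard deviation (SD), pooled within the EE-treated and the control horses, were taken. OAS3, OAS2 and FASLG were then dropped by name, which left 57 genes, called members below. The members were thus chosen by their measured spread between these horses, which is given as a description only. No sequence of a member or its probe was used here.

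The horses were prepubertal Welsh foals, weaned and reared together before the experiment, and whole venous blood was drawn into RNA-stabilizing tubes after 12 weeks of treatment. Of these, 9 control horses (6 males and 3 females), which the labels call impoverished in social and sensory condition, were stalled singly on shavings and had no company on their paddock turnouts. The other 10, the EE-treated horses (4 males and 6 females), grazed as a group with an adult mare whenever they were not in their straw-bedded day stalls, where smells, music, unfamiliar objects and changing feed were offered. Feed energy and handling time were the same in both groups, and the EE combined all its elements, so that they cannot be told apart from each other. Each horse gave 1 sample and 1 array, and blood was compared at a single time.

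Whole blood mixes red cells that still carry globin RNA with neutrophils, monocytes, lymphocytes, natural killer (NK) cells, eosinophils, basophils and platelets. Genes of 1 cell type rise and fall together when the share of that cell type differs between animals, and in such samples fewer cells of a type and less RNA per cell cannot be told apart. Other genes vary because animals carry different alleles or gene copies, as in the major histocompatibility complex (MHC) and the NK receptor families, or because a stimulus such as interferon has acted on the cells of some animals. A short array probe reads a transcript through its sequence, so members of multigene families can share signal.

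Each array carried 43803 non-control spots, of which 26829 to 30502 were well above background and 0 were saturated. Signals were multiplied by 1 factor per array that set its 75th percentile to 500, and all levels below are the log2 of the result. Levels of different genes come from different probes and were not compared. The 5 slides each held both groups, but control horses lay at positions 2 and 4 and EE-treated horses at positions 1 and 3, with 1 exception, so that position and group cannot be told apart. Slide 5 carried EE-treated horse469 and horse475 and control horse471 and had a scan time of its own. EE-treated horse469 had the highest level of the 19 horses in 11 of the 57 members and control horse471 in 8, and some results that these horses touch are also given on the 16 arrays of the other scan.

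The pooled SD of the members ran from 0.60 to 2.81 on the log2 scale, with a median of 0.72, against a median of 0.32 in the 360 genes at the same ranks that were not taken. It was above 1 in 13 members and above 2 in 5. The last genes inside the limit were PNMT at 0.605 and KIR3DL at 0.602, and the first outside were LMNA at 0.591, IL1R2 at 0.584 and TLR2 at 0.583. At the limits on rank, MX1 stood at 80 with a mean level of 12.84 and DENND1C at 81 with 12.84, while CYP3A89 stood at 500 with 2.97 and PDE1B at 501 with 2.96. Of the members, 38 (66.7%) were well above background on all 19 arrays, compared with 335 (93.1%) of the 360 other genes. The members thus held more dim genes than their neighbours in rank, and 33 of the 57 stayed among the chosen genes whichever single horse was left out.

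EQMHCC1, an MHC class I gene whose product presents peptides to T cells, had the widest spread, with a pooled SD of 2.81. Its levels were 5.88, 12.67 and 13.77 (lowest, median and highest) in EE-treated horses and 7.19, 12.46 and 13.34 in control horses. The horses fell into separate clusters. In 14 of them EQMHCC1 lay at 12.31 or above, and in the other 5 it lay at 7.82 or below. The 5 low horses were EE-treated horse646, horse648 and horse468, at 6.70, 5.88 and 6.70, and control horse650 and horse470, at 7.19 and 7.82. The probe was well above background in all 19 horses, and the whole range was 237-fold. MHC class I genes form a family of similar copies with many alleles, and which copies this probe reads was not tested.

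APOBEC3Z1B, of a family of cytidine deaminases that restrict viruses, ranged from 0.65 to 9.84 in EE-treated horses (median 6.80) and from 1.64 to 9.38 in control horses (median 5.68). It was well above background on 16 of the 19 arrays. Its levels did not form clusters as clear as those of EQMHCC1, since the widest gap inside the order of the horses was 1.37, between 1.97 and 3.34, with 3 horses below it. EE-treated horse475, at 0.65, lay apart from the other EE-treated horses, the nearest of which was at 5.14.

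**Figure D1:**
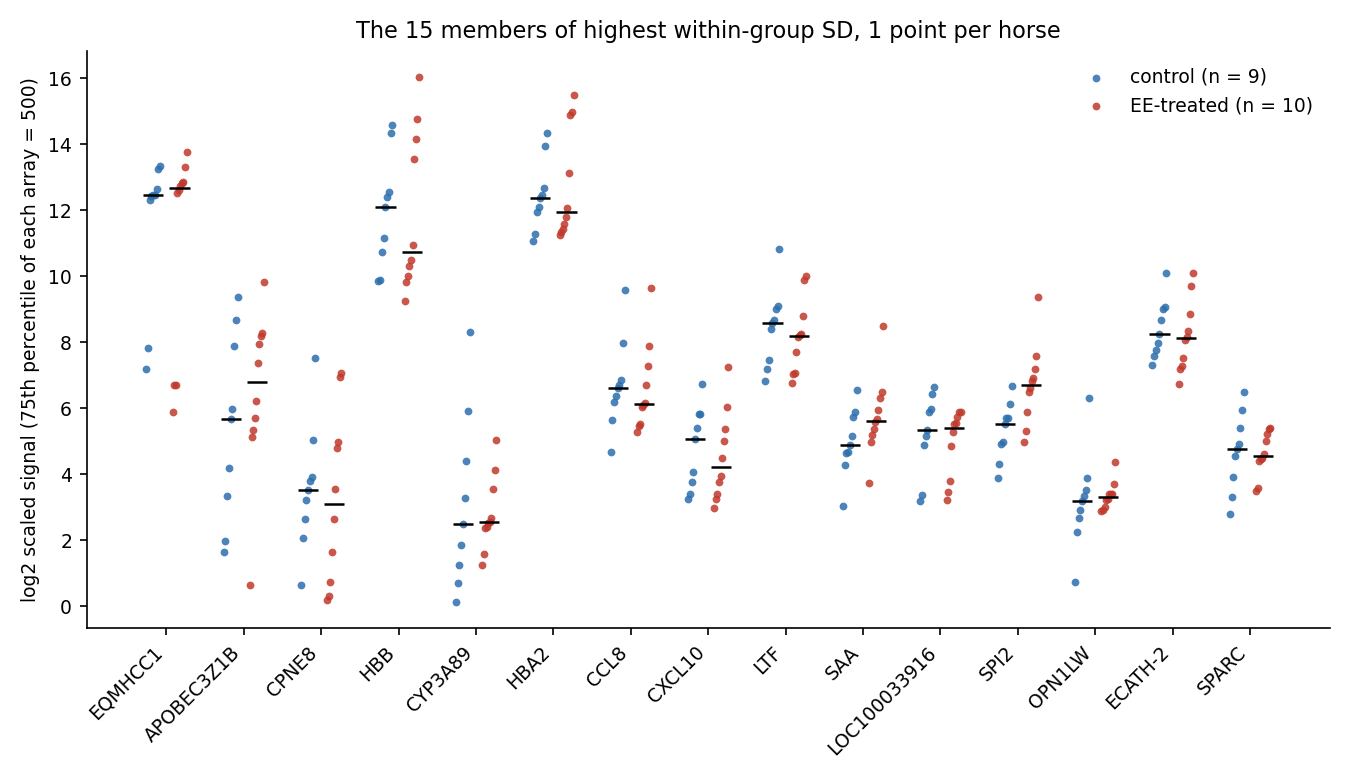
Log2 scaled signal (vertical axis) of the 15 members with the highest within-group SD, in order from left to right, with 1 point per horse, control horses in blue, EE-treated horses in red, and a black bar at the group median. EQMHCC1 splits into 5 horses at 7.82 or below and 14 at 12.31 or above, with horses of both groups in each cluster, and the ranges of the groups overlap in every gene shown.

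The globins HBB and HBA2, the chains of adult hemoglobin, were the pair of members that went together most closely. HBB had levels of 9.25, 10.72 and 16.03 (lowest, median and highest) in EE-treated horses and 9.85, 12.10 and 14.59 in control horses. HBA2 had 11.24, 11.94 and 15.49 in EE-treated horses and 11.06, 12.37 and 14.33 in control horses. The same 6 horses, EE-treated horse643, horse651, horse469 and horse473 and control horse476 and horse474, held the 6 highest levels of both genes, and 110-fold separated the extremes of HBB. After the group means were taken out, Pearson's r between HBB and HBA2 was 0.95 (adjusted p = 0.00798, permutation test) and Spearman's rho was 0.90 (adjusted p = 0.00532). It was 0.96 within the EE-treated horses, 0.92 within the control horses, 0.96 on the 16 arrays of the first scan, and 0.92 without the 2 horses farthest from the median of HBB. HRH4, the histamine H4 receptor of eosinophils, basophils and mast cells, had an r of 0.71 with HBA2 (adjusted p = 0.124, permutation test), which was 0.89 within the EE-treated horses and 0.35 within the control horses. APOBEC3Z1B and KLK1, a kallikrein protease, clustered with the globins, and APOBEC3Z1B with HBB had an r of 0.64 (adjusted p = 0.176, permutation test).

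CCL8 and CXCL10, chemokines that draw monocytes and activated T cells, led the biggest cluster of members. CCL8 had levels of 5.28, 6.13 and 9.63 (lowest, median and highest) in EE-treated horses and 4.68, 6.60 and 9.58 in control horses. CXCL10, which interferon induces, had 2.98, 4.22 and 7.25 in EE-treated horses and 3.26, 5.07 and 6.74 in control horses. EE-treated horse469 and control horse470 held the highest levels of both chemokines, 1 horse in each group. The r between CCL8 and CXCL10 was 0.86 (adjusted p = 0.00958, permutation test) and rho was 0.82 (adjusted p = 0.0239). It was 0.89 within the EE-treated horses and 0.83 within the control horses, and 0.76 without EE-treated horse469 and control horse470.

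The same cluster held TNFAIP6, an inflammation-induced protein that binds hyaluronan, IL18, a cytokine that drives interferon gamma, EIF2AK2, the double-stranded RNA sensor PKR, TMEM255A and LOC100066639. The mean r over the pairs of these 7 genes, both chemokines included, was 0.57, with a lowest r of 0.28. TNFAIP6 ran from 5.45 to 8.07 in EE-treated horses (median 6.29) and from 5.13 to 7.60 in control horses (median 5.68). EE-treated horse469 and control horse470 were again the 2 highest, and each was among the 3 highest horses in 5 of the 7 genes. Control horse650 was among the 3 lowest in 5 of the 7.

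The r of TNFAIP6 was 0.73 with CCL8, 0.72 with IL18 and 0.71 with CXCL10 (adjusted p = 0.138, 0.0519 and 0.1, permutation test), and that of CCL8 with EIF2AK2 was 0.71 (adjusted p = 0.1, permutation test). Spearman's rho was 0.47, 0.79, 0.57 and 0.54 in the same order, with adjusted p of 0.548, 0.0383, 0.365 and 0.367, so that IL18 with TNFAIP6 was under the limit of 0.05 by rank alone. Without EE-treated horse469 and control horse470, r was 0.32 for CCL8 and TNFAIP6, 0.45 for CXCL10 and TNFAIP6 and 0.59 for CCL8 and EIF2AK2, so that the first of these rested on those 2 horses. For IL18 and TNFAIP6 it was 0.54 without EE-treated horse469 and horse642. On the 16 arrays of the first scan, which leave out horse469, r was 0.83 for CCL8 and CXCL10 (adjusted p = 0.0718, permutation test), 0.62 for CCL8 and TNFAIP6, 0.57 for CXCL10 and TNFAIP6, 0.58 for IL18 and TNFAIP6 and 0.75 for CCL8 and EIF2AK2.

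**Figure D2:**
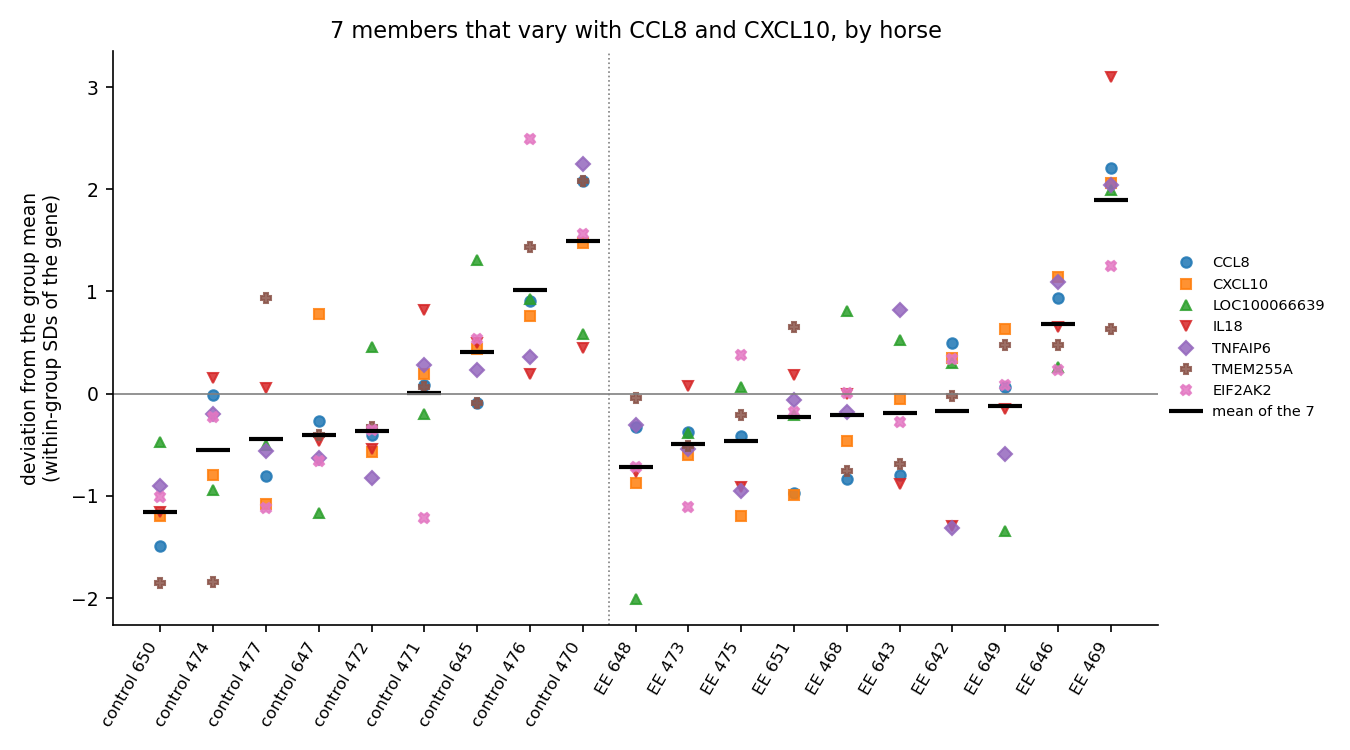
Deviation of each horse from its group mean, in within-group SDs of the gene (vertical axis), for 7 members of the cluster of CCL8 and CXCL10, with horses ordered by the mean of the 7 (black bars) within the control group (left of the dotted line) and the EE-treated group (right). Control horse470 and EE-treated horse469 stand highest, and control horse650 lowest, with all 7 genes on the same side of the group mean in each of these 3 horses.

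IL18 had levels of 9.37, 10.32 and 12.82 in EE-treated horses and 8.80, 9.83 and 10.35 in control horses (lowest, median and highest), and EE-treated horse469 at 12.82 lay above the next EE-treated horse at 10.90. LOC100066639, a protein-coding gene without a name, was read by 5 probes whose pairs correlated at 0.99 or more over the horses, and it ran from 9.31 to 12.57 in EE-treated horses and from 9.46 to 11.49 in control horses. TMEM255A ran from 2.57 to 5.39 over both groups. EIF2AK2 is described with the comparison of the groups.

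GZMB, or granzyme B, a protease that cytotoxic T cells and NK cells deliver into target cells, had levels of 10.98, 12.11 and 13.56 (lowest, median and highest) in EE-treated horses and 11.05, 12.43 and 14.22 in control horses. LOC100053869, a protein-coding gene without a name, had 9.60, 10.90 and 12.38 in EE-treated horses and 9.30, 10.95 and 12.77 in control horses. Control horse471 and EE-treated horse473 were the 2 highest in both genes. The r between them was 0.89 (adjusted p = 0.00798, permutation test), rho was 0.87 (adjusted p = 0.00532), and r was 0.82 without the 2 horses farthest from the median of LOC100053869. On the 16 arrays of the first scan r was 0.83, with an adjusted p of 0.148. In the gene order of the reference assembly TB-T2T both genes lay on the same chromosome with 28 entries between them. EQMHCC1 was put into the same cluster of members by its r over all horses. Since its levels fall into separate clusters of horses, that r is neither printed nor plotted. Within the 14 horses of its upper cluster, r of EQMHCC1 was -0.03 with GZMB and -0.20 with LOC100053869 (adjusted p = 0.936 for both, permutation test). There rho was 0.17 and 0.02 (adjusted p = 0.941 for both, permutation test), and over so few horses moderate correlations remain possible. No pair of EQMHCC1 reached the limit of 0.7 used below.

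KLRF1 and KLRB1, lectin-like receptors of NK cells and of some T cells, formed a pair of their own. KLRB1 had levels of 6.75, 7.44 and 8.79 (lowest, median and highest) in EE-treated horses and 6.15, 7.75 and 8.85 in control horses. KLRF1, well above background on 15 of the 19 arrays, had 2.67, 4.02 and 4.80 in EE-treated horses and 2.32, 4.23 and 5.51 in control horses. Control horse471 was the highest and control horse476 the lowest in both. The r between them was 0.86 (adjusted p = 0.00798, permutation test) and rho was 0.80 (adjusted p = 0.0399). Within the EE-treated horses r was 0.67 and within the control horses 0.97, and it was 0.74 without control horse476 and EE-treated horse475. Without control horse476 alone, r was 0.78 with an adjusted p of 0.0707, and on the arrays of the first scan it was 0.80 with an adjusted p of 0.198. In the order of TB-T2T, 8 entries lay between the genes. Other members near each other had r close to 0. TNFAIP6 and RND3, with 5 entries between them, had an r of 0.06, and TNNI3 and KIR3DL, with 16, one of 0.06. LY49C, another NK receptor, had 39 entries between it and KLRF1 and 48 between it and KLRB1. Its r was -0.002 with KLRF1 and 0.08 with KLRB1. Whether nearness in the gene order goes with r was not tested.

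NFYB, a subunit of the transcription factor NF-Y, joined this pair with an r of 0.73 to each (adjusted p = 0.105 with KLRF1 and 0.1 with KLRB1, permutation test; rho 0.60 and 0.69). On the first scan r was 0.65 and 0.66. With group and slide taken out, r between NFYB and KLRF1 was 0.92 (adjusted p = 0.00399, permutation test). The values were shuffled within groups but across slides, so this p can be too small. Between GZMB and the receptors r was 0.10 for KLRF1 and 0.13 for KLRB1, values that over 19 horses leave moderate correlations possible. The 4 members on the list of T cell and NK cell genes (GZMB, KLRF1, KLRB1 and FOXP3, the transcription factor of regulatory T cells) had a mean r of 0.20, and 5 of their 6 pairs had an r of 0.16 or less. The 3 members on the list of inflammatory and NF-kB genes (CCL8, IL18 and TNFAIP6) had a mean r of 0.70, between 0.65 and 0.73 for the pairs, and of 0.54 without EE-treated horse469. Without that horse r between CCL8 and IL18 was 0.41. The other NK receptors among the members were LY49C and KIR3DL, both of multigene families, with pooled SDs of 0.92 and 0.60.

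**Figure D3:**
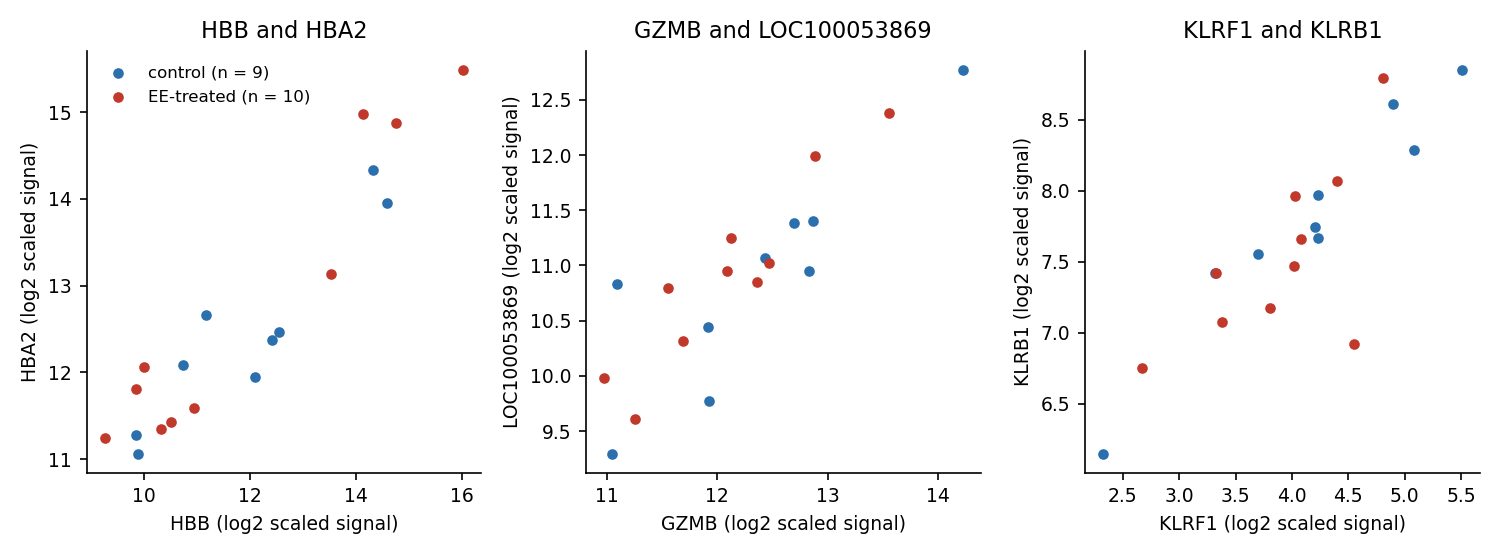
Log2 scaled signal of one member against another for HBB and HBA2, GZMB and LOC100053869, and KLRF1 and KLRB1, with 1 point per horse, control horses in blue and EE-treated horses in red. In each panel the horses of both groups lie along a common line, with r of 0.95, 0.89 and 0.86 after the group means were taken out. For KLRF1 and KLRB1 r was 0.67 within the EE-treated and 0.97 within the control horses.

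LTF, or lactoferrin, an iron-binding protein of secondary granules, had levels of 6.76, 8.18 and 10.00 (lowest, median and highest) in EE-treated horses and 6.83, 8.59 and 10.83 in control horses. ECATH-2, an antimicrobial cathelicidin of the horse, had 6.72, 8.11 and 10.09 in EE-treated horses and 7.32, 8.26 and 10.09 in control horses. Control horse477 was the highest horse in both genes, and EE-treated horse651 was the second. The r between LTF and ECATH-2 was 0.69 (adjusted p = 0.124, permutation test), 0.81 within the EE-treated horses and 0.55 within the control horses, and it was 0.47 without horse477 and horse651. These genes clustered with FOXP3. MMP1, a collagenase read by 8 probes and, with LTF, on the list of neutrophil genes, ran from 7.06 to 9.79 and clustered with no other member, and its r with LTF was -0.07.

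Among genes of eosinophils, basophils and platelets, FCER1A, the alpha chain of the high-affinity IgE receptor, ran from 9.29 to 11.70, with medians of 10.72 in EE-treated horses and 10.22 in control horses. It had the most negative r of any pair of members, -0.68 with TNNI3, a troponin of heart muscle (adjusted p = 0.176, permutation test). With group and slide both taken out this r was -0.41. HRH4 correlated with SPARC, a matrix protein also found in platelets, at 0.71 (adjusted p = 0.0702, permutation test). HRH4 ran from 4.64 to 7.36 and SPARC from 2.79 to 6.49, and the groups overlapped in both genes. CLU, or clusterin, which platelets also carry, ran from 2.99 to 5.84.

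Several secreted and acute phase genes fell into no cluster. SAA, serum amyloid A, an acute phase protein, had levels of 3.75, 5.62 and 8.49 (lowest, median and highest) in EE-treated horses and 3.04, 4.87 and 6.54 in control horses, with EE-treated horse469 the highest. Its r of largest size among the members was 0.60, with IL18, for which the same horse was the highest. The next EE-treated horse stood at 6.49 in SAA and 10.90 in IL18. This r thus leans on horse469, and its value without that horse is not given here. LOC100033916, which the reference table also calls SCGB1A1, a secretoglobin of airway epithelium, had levels of 3.22, 5.41 and 5.89 in EE-treated horses and 3.20, 5.34 and 6.65 in control horses. In LOC100033916, 5 horses lay at 3.80 or below and 14 at 4.85 or above. Its 8 probes had a mean r of 0.92 with each other. SELENOP, a selenium transport protein, ran from 7.11 to 9.57, and SFTPB, a lung surfactant protein, stood at 7.86 in EE-treated horse651 and between 3.87 and 5.28 in the other 18 horses. Growth factors and related genes among the members were IGF1, PDGFC and BMP7, with pooled SDs of 0.65, 0.62 and 0.71. Of these, BMP7 did cluster, with CLU. IGF1 and BMP7 were dim, each well above background on 11 of the 19 arrays. IFND2, an interferon, had a pooled SD of 0.88 and was highest in control horse477 and horse474, at 6.99 and 6.51.

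Many of the remaining members were dim, and 19 of the 57 were below the limit for well above background on at least 1 array. CYP3A89, a cytochrome P450, was well above background on 7 of the 19 arrays. It ran from 1.26 to 5.02 in EE-treated horses (median 2.54) and from 0.13 to 8.31 in control horses (median 2.49). CPNE8, a calcium-dependent membrane-binding protein, was well above background on 12 arrays. It ran from 0.19 to 7.06 in EE-treated horses (median 3.095) and from 0.64 to 7.51 in control horses (median 3.52), with 3 horses, control horse477 and EE-treated horse642 and horse651, at 6.94 or above and the other 16 at 5.03 or below. OPN1LW, a cone opsin, was well above background on 13 arrays, with levels of 2.89, 3.32 and 4.36 in EE-treated horses and 0.74, 3.18 and 6.32 in control horses. OPN1LW clustered with the olfactory receptor OR4C11E and with DUSP29, a phosphatase, but its r with DUSP29 was 0.67 over all horses and 0.15 without control horse472 and horse477. Other sensory and signaling receptors in this dim range were EQUCABV1R931, a vomeronasal receptor, and GPR75, on 14 and 12 arrays. CCNT1, a cyclin of the transcription elongation factor P-TEFb, was well above background on 14 arrays and ran from 1.70 to 5.18, and LOC100054536, a transcribed pseudogene well above background on all 19, ran from 3.77 to 6.07.

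In all, 16 of the 1596 pairs of members (1.0%) had an r of at least 0.7 in size after the group means were taken out, compared with 2.53% of the 64620 pairs of the other genes at ranks 81 to 500. Among genes well above background on all arrays the shares were 1.85% of 703 pairs and 2.78%. The median size of r was 0.18 for the pairs of members and 0.23 for the other pairs. Close pairs thus made up a smaller share among the members than among the other genes, a comparison given without a test, but with normexp background correction the shares were 7.77% and 6.86%, the other way round. All 16 pairs were positive, and 17 members took part in them, while 1.68% of the other pairs were at 0.7 or more and 0.846% at -0.7 or less (1.85% and 0.935% among genes well above background on all arrays). With 1596 pairs tested, 7 had an adjusted p under the limit of 0.05 for r and 6 for rho. The smallest p that the permutations could give was 1e-05. For r, 23 pairs were under the limit with group and slide taken out, 206 with normexp and 1 on the first scan. The shuffles behind the 23 ran across slides, so that count can be too high. On the 16 arrays of the first scan, 10 of the 16 pairs were again at 0.7 or more, and HBB with HBA2 was the 1 pair under that limit (adjusted p = 0.016, permutation test).

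Clustering of the members with a limit at a mean r of 0.5 gave 12 clusters that held 38 members and left 19 members alone. Beside the clusters already described, GPR75, EQUCABV1R931, LOC100051562 and FCER1A had a mean r of 0.57, and LTF, ECATH-2 and FOXP3 one of 0.60. TLR3, a sensor of double-stranded RNA, and LRP12, a lipoprotein receptor-related protein, had an r of 0.71 (adjusted p = 0.141, permutation test), which was 0.45 within the EE-treated horses, 0.87 within the control horses and 0.62 on the first scan. BMP7 with CLU, STS (steroid sulfatase) with KIR3DL, and CYP2D50 with TNNI3 made the other pairs, at 0.58, 0.55 and 0.51. The mean of each cluster was also set against 2 measures of the arrays, the 75th percentile before scaling and the share of spots well above background. The smallest adjusted p over these 24 relations was 0.65 for r and 0.517 for rho (permutation test).

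**Figure D4:**
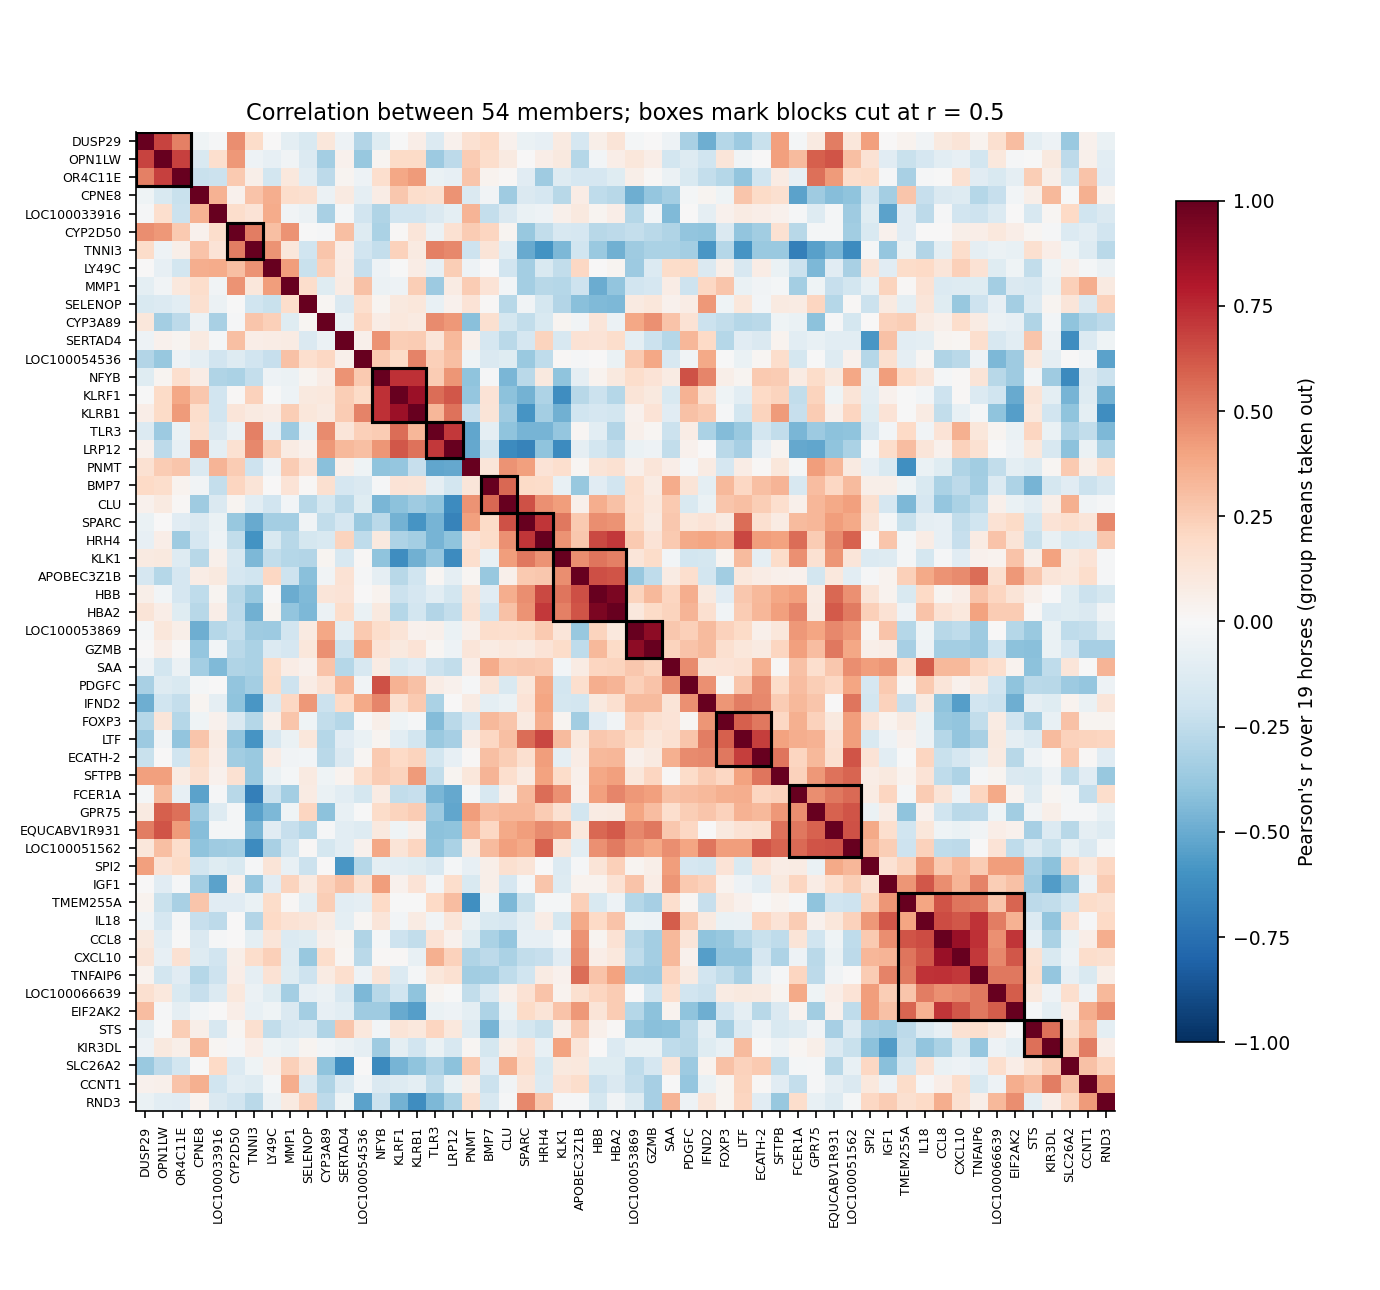
Pearson's r (color, from -1 in blue to 1 in red) between all pairs of 54 members over 19 horses, without EQMHCC1, with group means taken out and members ordered by clustering. Black boxes mark the 12 clusters, of which the one around CCL8 and CXCL10, near the lower right corner, covers the most genes.

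The difference between EE-treated and control horses was not used in choosing the members, but the spread within groups was, and it is the error of that comparison. A lower share of calls than over all rows was therefore built into the choice, and nothing about the members is read from the counts that follow. With limma, 0 of the 57 members passed the threshold of the study's methods, an unadjusted p under 0.005 and a difference of at least 20%, compared with 1.83% of the 42402 rows tested (1.18% higher and 0.646% lower in EE-treated horses). After Benjamini-Hochberg adjustment over all rows, 0 members and 0 rows were under 0.05. The random-variance test of the methods also called 0 members. At an unadjusted p under 0.05 in limma there were 7 members (12.3%), 4 higher and 3 lower in EE-treated horses, against 11.7% of all rows (7.45% higher and 4.27% lower). The random-variance test also gave 7. The levels of the groups overlapped in all 57 members. The log2 difference, EE-treated minus control, had a median of 0.01 over the members (29 above and 28 below 0, or 50.9% above) and of 0.06 over all rows (60.2% above). The median standard error was 0.31 for the members and 0.17 for all rows.

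SPI2, named as a serine proteinase inhibitor, had the smallest p among the members. Its levels were 4.96, 6.72 and 9.37 (lowest, median and highest) in EE-treated horses and 3.89, 5.51 and 6.68 in control horses. The difference was 1.40 on the log2 scale (95% confidence interval 0.42 to 2.38, p = 0.0072, adjusted p = 0.283 in limma), with 8 of 10 EE-treated horses above the control mean and 5 above every control horse. It was 1.11 on the first scan, which leaves out EE-treated horse469, the highest. OR4C11E, an olfactory receptor, differed by 1.05 (0.28 to 1.81, adjusted p = 0.301 in limma). It was well above background in all 10 EE-treated horses and in 5 of the 9 control horses, with levels of 3.08 to 5.25 and 0.36 to 3.62. SERTAD4 differed by 0.72 and LOC100051562 by 0.68 (adjusted p = 0.36 and 0.4 in limma). SERTAD4 ran from 4.74 to 6.42 in EE-treated and from 3.49 to 6.02 in control horses, and LOC100051562 from 3.82 to 6.12 and from 3.35 to 4.99. IL18 came next, at 0.67 (-0.04 to 1.38, adjusted p = 0.448 in limma). Its difference was 0.54 on the first scan and 0.40 without EE-treated horse469 alone.

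In the other direction, TLR3 had levels of 3.22, 3.85 and 4.89 (lowest, median and highest) in EE-treated horses and 3.38, 4.49 and 5.80 in control horses. The difference was -0.77 (-1.35 to -0.18, adjusted p = 0.317 in limma), with 9 of 10 EE-treated horses below the control mean, and TLR3 was well above background on 17 of the 19 arrays. EIF2AK2 had 4.86, 5.65 and 6.47 in EE-treated horses and 5.49, 6.08 and 8.04 in control horses, a difference of -0.71 (-1.34 to -0.09, adjusted p = 0.366 in limma). Both genes sense double-stranded RNA, and neither passed the adjusted test. They lay in different clusters, and r between them was -0.07, a value that over 19 horses leaves moderate correlations possible. SLC26A2, a sulfate transporter, differed by -0.60 (adjusted p = 0.422 in limma), but its probes disagreed, and the brighter one gave -0.03. RND3, a small GTPase, and IFND2 differed by -0.43 and -0.35 (adjusted p = 0.536 and 0.678 in limma). The difference of IFND2 was -0.10 without control horse477 and -0.16 without control horse474. On the first scan the difference of TLR3, whose highest level was in control horse471, was -0.47, while those of SLC26A2 and RND3 were -0.91 and -0.65. With normexp background correction 9 of these 10 differences were smaller by over 1.5 times, at 0.88 for SPI2, 0.32 for OR4C11E, 0.41 for SERTAD4, 0.38 for LOC100051562, -0.06 for TLR3, -0.25 for EIF2AK2, -0.02 for SLC26A2, -0.14 for RND3 and -0.06 for IFND2. In the deposited log2 values OR4C11E differed by 0.495.

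**Figure D5:**
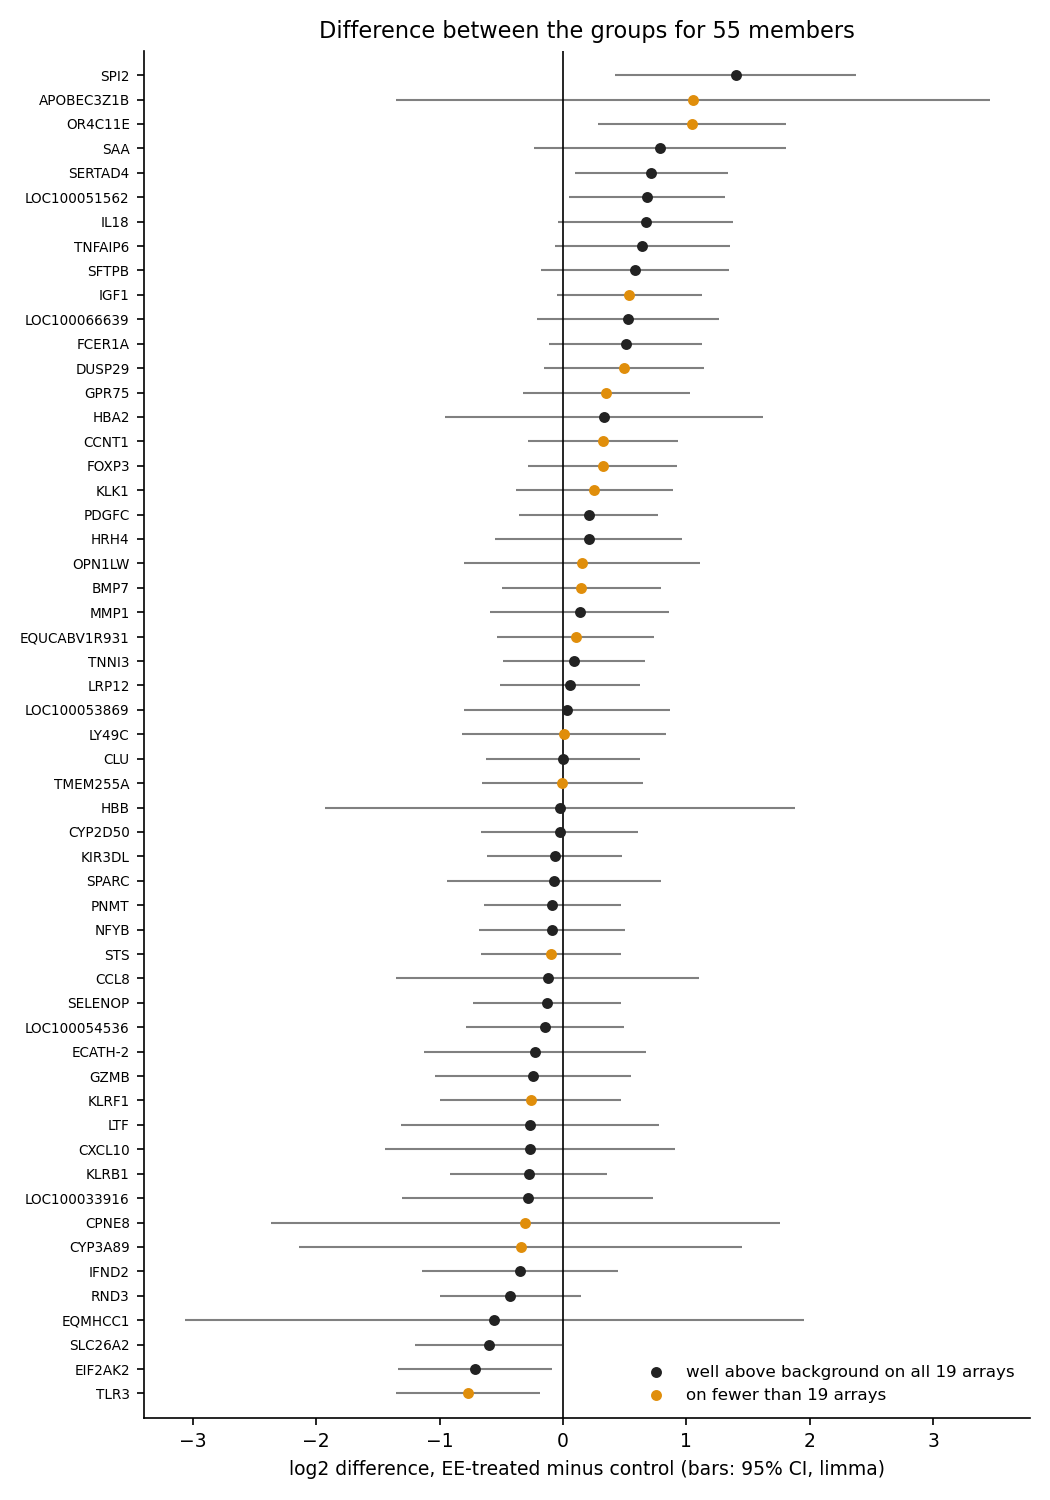
Log2 difference, EE-treated minus control, of 55 members (points) with 95% confidence intervals from limma (bars), ordered by size, with members well above background on all 19 arrays in black and the others in orange. The points run from -0.77 for TLR3 to 1.40 for SPI2, and the intervals are widest for EQMHCC1, APOBEC3Z1B, CPNE8 and HBB.

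For the most variable members the intervals were wide. The 95% interval of the difference was -3.07 to 1.95 for EQMHCC1, -1.35 to 3.46 for APOBEC3Z1B, -1.93 to 1.88 for HBB, -0.96 to 1.63 for HBA2, -1.35 to 1.10 for CCL8 and -1.44 to 0.91 for CXCL10. Differences of 1 log2 unit in either direction, or nearly so, were therefore not excluded for these genes. Set beside the genes of the same kind that the array names, 0 of 10 T cell and NK cell genes, 0 of 4 interferon-induced genes, 0 of 7 neutrophil genes, 0 of 6 erythroid genes, 0 of 8 platelet genes, 0 of 5 antigen presentation genes and 0 of 5 eosinophil, basophil and mast cell genes passed the threshold of the methods in either direction. With 1.83% called over all rows, lists of this size would hold under 1 call each, so these counts say nothing about the lists. Among 20 inflammatory and NF-kB genes, 1 was higher in EE-treated horses, NOS2, by 0.42 (adjusted p = 0.24 in limma), which is no member and was named after its value was seen. The median difference was -0.09 over the T cell and NK cell genes, 0.17 over the inflammatory genes, -0.07 over the interferon-induced genes, 0.26 over the neutrophil genes, 0.14 over the erythroid genes, 0.15 over the platelet genes, 0.19 over the antigen presentation genes and 0.40 over the eosinophil, basophil and mast cell genes, against 0.06 over all rows.

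The groups held males and females in unequal numbers. With treatment in the fit, 23 members were higher in the 9 females and 34 in the 10 males, and no member had ranges that set the sexes apart. The largest differences, female minus male, were 1.41 for CPNE8, -1.04 for EQMHCC1 and -0.83 for FCER1A, given here without a test since sex lies inside the spread that chose the members. Of the 57 members, 36 were read by 1 probe. In 13 of the 21 members with more probes the mean r between the probes was 0.9 or more, as for CXCL10 (0.95 over 5 probes), ECATH-2 (0.96 over 5 probes) and MMP1 (0.97 over 8 probes). It was under 0.5 in 3 members, LY49C at -0.13, PNMT at 0.25 and SLC26A2 at 0.40, so that the mean level of these genes mixes probes that did not move together.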

How the data were processed

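Blood RNA of 19 horses, EE-treated (n = 10) and control (n = 9), was labeled with 1 dye and hybridized to 1 Agilent array per horse. The authors scanned the arrays and deposited the intensity of each spot, background-corrected by Feature Extraction (version 10.7.3.1 per the file headers, 9.1 per the labels). The log2 values that the authors also deposited matched the scaled intensity at levels above 6, differed for some dimmer genes, and were used as an alternative.

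Outlier spots were left out, and spots of a probe and then probes of a gene were averaged as log2. The RefSeq table of TB-T2T (names and gene order only) named 1781 of 3275 probes with a RefSeq accession, as 799 genes. The members, gene lists and tests were chosen with earlier results of these data known. Named genes were the 15 of highest SD, the 5 of smallest p in each direction, the 10 closest pairs, list members and the genes at the limits. Other members are given by SD, range or cluster. Single results of 2 members are not reported here, and counts over the 57 members include them.

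Groups were compared with limma 3.58.1 (R 4.3.3) over 799 genes and 41603 unnamed probes, with Benjamini-Hochberg adjustment and a two-sided test. Correlations (Python 3.11.15, numpy 2.4.6) used values with the group mean removed, and p-values came from 100000 two-sided permutations within groups, adjusted over all pairs. Clusters came from average linkage. The scripts were tested on simulated data. Alternatives were other normalizations, background corrections, filters, probes, covariates, tests and centrings, and each horse left out. Precision is limited by how many arrays there are. The limma p-values set a difference against the spread between these horses within groups. The permutation p-values set a correlation against shuffled values of the same horses.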

Additional observations from a re-analysis of the deposited data

Results flagged for a closer look

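Of 110 sets of values (55 members in 2 groups), 9 (8.18%) had a horse whose gap to its nearest neighbor took up an unusually large part of the group's whole range, where chance alone would give about 5%. The share of the range is given for each. In the EE-treated group it was 0.489 for APOBEC3Z1B (horse475 at 0.655, next 5.14), 0.677 for OR4C11E (horse649 at 5.25, next 3.78), 0.645 for SFTPB (horse651 at 7.86, next 5.28), 0.557 for IL18 (horse469 at 12.82, next 10.90), 0.567 for CCNT1 (horse649 at 5.18, next 3.73) and 0.572 for SELENOP (horse643 at 7.11, next 8.26). In the control group it was 0.601 for TNFAIP6 (horse470 at 7.60, next 6.12), 0.504 for DUSP29 (horse477 at 1.86, next 3.39) and 0.565 for CCNT1 (horse471 at 1.70, next 2.79). EE-treated horse649 appeared for 2 genes, OR4C11E and CCNT1. The members were chosen for their spread, which a single horse can supply, so these values are not independent of that choice.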

How the results depend on the processing

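No paired analysis was possible because each horse, with its own number, belonged to 1 group. Of the 57 members, 29 were again chosen with normexp background correction and 37 with only probes well above background on all arrays, and 44 to 57 under the other alternatives. With each horse left out the number lay between 53 and 56. Members called between the groups numbered 2 with normexp (SPI2 and LOC100051562) and 1 on the arrays of the first scan, an alternative chosen after seeing the data (SLC26A2). With each horse left out they numbered 0 to 1: SPI2 without control horse476 or EE-treated horse646 or horse473, OR4C11E without control horse645, and TLR3 without control horse472 or EE-treated horse642. They numbered 0 under the other alternatives. The median difference lay between -0.03 and 0.14, and between -0.02 and 0.10 with each horse left out. Pairs with an r of at least 0.7 in size numbered 124 with normexp. That was 7.77%, against 6.86% of the pairs of other genes, where the main values were 1.0% and 2.53%. With group and slide taken out they numbered 28 (1.75%, against 4.46% of the pairs of other genes). They numbered 53 at a limit of 0.6 and 6 at 0.8. They numbered 12 to 17 under the other alternatives and 13 to 21 with each horse left out. The mean r of the T cell and NK cell members was 0.10 with group and slide taken out, and the leave-one-out range was 0.16 to 0.26, against 0.54 to 0.75 for the inflammatory members. Of 298 values for the differences of 10 named members under alternatives, 289 stayed on the same side of the threshold, 9 gained it and 0 turned direction. Since 0 members passed the threshold in the main fit, a loss could not be counted. The 289 thus do not show that the size of a difference held. They include SLC26A2, at -0.60 in the main fit and -0.02 with normexp, and TLR3, at -0.77 and -0.06. Of 308 values for the 10 closest pairs, 282 stayed, 12 lost and 14 gained an adjusted p under 0.05, and 0 turned direction. Any gain with group and slide taken out rests on shuffles across slides, which can make p too small. The causes of these changes were not tested. Depth on an array is signal over background, and the 19 dim members have the least certain spread and differences.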
